A study of Homo sapiens with 18 samples.

Results

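The 8 genes described here, LAMA3, LAMB3, ITGA3, ITGA6, ITGB4, COL17A1, DST and PLEC, encode parts of the structure that fastens an epithelial cell to its basement membrane. They are 8 of 19962 protein-coding genes in GENCODE 44. A region of a deposited peak list was given to a gene when its middle lay in the gene's span or within 2 kb of its start. LAMA3 and LAMB3 were chosen because earlier work on these lists had shown long runs of A3B-eGFP regions in them, so their A3B-eGFP counts after PMA are given as a description. The other 6 genes were chosen for their role.

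DRIP-seq maps R-loops, in which nascent RNA pairs with its DNA template and leaves the other DNA strand single, by immunoprecipitation with S9.6, an antibody against RNA/DNA hybrids. It was done in MCF10A WT and A3B KO cells after DMSO, PMA for 2 h or PMA for 6 h. MCF10A is a human breast epithelial line that does not form tumours, and PMA (25 ng per ml) is a phorbol ester that activates protein kinase C. APOBEC3B (A3B) is an enzyme that deaminates cytosine in single-stranded DNA. The A3B KO cells are a clone made with a guide RNA that also targets the neighbouring APOBEC3A gene. The paper describes the outcome as a fusion of APOBEC3A with A3B. Changes at APOBEC3A, loss of A3B and clonal differences thus cannot be told apart. Anti-GFP ChIP-seq was done in other MCF10A cells, which carry A3B-eGFP under a doxycycline-inducible promoter. They were sampled without doxycycline and with DMSO (DOX- DMSO), after 1 µg per ml doxycycline for 24 h with DMSO (DOX+ DMSO), and after the same doxycycline with PMA for 2 h (DOX+ PMA 2 h). No list of PMA without doxycycline was analysed here, so background of the antibody after PMA is unknown.

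Each of the 9 conditions has 1 library and 1 list, so no difference between conditions could be tested against the spread between replicates. Every entry was 500 bp long, with a pileup (fragments at the summit) and a fold enrichment over the local background in the input. The DRIP-seq lists held 91894 to 169126 regions and the A3B-eGFP lists 4040 to 7122, and the reads per library are unknown. Counts per gene were therefore set per 100000 regions of their own list before lists were compared. A gene was called higher or lower where this value differed at least 2-fold and the higher list held at least 3 regions. Shares of genes called are over the protein-coding genes with at least 3 regions in either list. Cells were analysed in bulk, so more cells with an R-loop and more R-loops per cell cannot be told apart. Of 5 basal epithelial marker genes, KRT5, KRT14 and LAMB3 had a DRIP-seq region within 2 kb of the start in all 6 lists and TP63 in none. The luminal markers KRT8 and KRT18 and the mesenchymal marker VIM also had such a region in all 6 lists. CD79A, a B-cell gene, had one in 5 lists, so such a region is no measure of expression.

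Laminin-332 is a secreted basement membrane protein whose chains include α3 (LAMA3) and β3 (LAMB3). It is bound by integrin α6β4 (ITGA6 and ITGB4) in hemidesmosomes, where plectin (PLEC), the epithelial form of dystonin (DST) and collagen XVII (COL17A1) link it to keratin filaments. Integrin α3β1, with the α3 chain from ITGA3, binds the same laminin outside hemidesmosomes and serves in adhesion and migration.

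The sequences shown first are the places on which the results turn, read from hg38 on the coding strand. The first 3 are 300 bases around the strongest DRIP-seq summit of LAMB3 after PMA for 2 h in WT (chr1:209651946-209652245, minus strand), of LAMA3 in the same list (chr18:23882647-23882946, plus strand) and of ITGB4 after DMSO in WT (chr17:75721687-75721986, plus strand), all in introns. Capitals mark runs of 3 or more G, the letters that make the strand opposite the template G-rich.
LAMB3 DRIP-seq summit: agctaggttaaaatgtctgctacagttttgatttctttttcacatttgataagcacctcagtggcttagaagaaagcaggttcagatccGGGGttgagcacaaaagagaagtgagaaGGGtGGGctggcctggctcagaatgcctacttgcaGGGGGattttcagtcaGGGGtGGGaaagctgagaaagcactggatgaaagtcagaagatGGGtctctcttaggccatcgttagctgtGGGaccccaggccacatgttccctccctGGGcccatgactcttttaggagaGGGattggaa
LAMA3 DRIP-seq summit: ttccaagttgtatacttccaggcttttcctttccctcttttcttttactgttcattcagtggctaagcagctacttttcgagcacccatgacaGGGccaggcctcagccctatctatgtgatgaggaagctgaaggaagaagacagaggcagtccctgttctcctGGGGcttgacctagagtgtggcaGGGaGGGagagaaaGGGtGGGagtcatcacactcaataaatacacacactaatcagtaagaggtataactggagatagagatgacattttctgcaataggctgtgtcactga
ITGB4 DRIP-seq summit: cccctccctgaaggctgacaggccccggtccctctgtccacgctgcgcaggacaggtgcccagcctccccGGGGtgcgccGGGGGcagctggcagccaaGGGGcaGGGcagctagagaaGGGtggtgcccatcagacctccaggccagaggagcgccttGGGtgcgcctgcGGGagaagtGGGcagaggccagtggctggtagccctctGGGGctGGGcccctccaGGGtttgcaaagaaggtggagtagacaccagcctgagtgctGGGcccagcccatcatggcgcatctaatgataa
The LAMB3 window held 10 such runs at a GC content of 49.7%, the LAMA3 window 6 at 47.0% and the ITGB4 window 12 at 67.7%. G exceeded C on the coding strand in all 3 windows, with a GC skew, (G - C)/(G + C), of 0.221, 0.0780 and 0.0837.

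The next sequence is the A3B-eGFP region of LAMA3 with the highest fold enrichment after PMA, in an intron (chr18:23879153-23879452, plus strand). Capitals mark TCA and TCT, the trinucleotides A3B favours, and their reverse complements TGA and AGA, which stand for the same letters on the other strand.
LAMA3 A3B-eGFP summit: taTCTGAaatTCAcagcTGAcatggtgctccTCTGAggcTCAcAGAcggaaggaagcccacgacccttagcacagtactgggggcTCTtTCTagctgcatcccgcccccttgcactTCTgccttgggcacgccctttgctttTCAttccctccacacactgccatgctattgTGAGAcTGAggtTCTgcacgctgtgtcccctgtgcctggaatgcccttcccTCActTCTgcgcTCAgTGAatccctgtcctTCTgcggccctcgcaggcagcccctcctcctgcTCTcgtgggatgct
In this window 14 TCA or TCT stood on the printed strand and 8 on the other.

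The last pair shows 270 bases before and 30 from the start of the short LAMA3 transcript, LAMA3-201 (chr18:23872750-23873049, plus strand), and of the full LAMB3 transcript, LAMB3-201 (chr1:209652396-209652695, minus strand). Capitals mark TGACTCA and TGAGTCA, the letters bound by AP-1, a transcription factor known to act downstream of PMA. Each is the reverse complement of the other, so both strands are covered.
LAMA3-201 start: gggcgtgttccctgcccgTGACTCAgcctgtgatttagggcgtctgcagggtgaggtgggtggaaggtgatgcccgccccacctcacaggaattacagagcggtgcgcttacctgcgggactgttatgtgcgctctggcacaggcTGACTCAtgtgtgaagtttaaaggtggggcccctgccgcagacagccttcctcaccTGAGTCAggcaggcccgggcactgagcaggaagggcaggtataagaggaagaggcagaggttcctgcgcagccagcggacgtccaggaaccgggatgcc
LAMB3-201 start: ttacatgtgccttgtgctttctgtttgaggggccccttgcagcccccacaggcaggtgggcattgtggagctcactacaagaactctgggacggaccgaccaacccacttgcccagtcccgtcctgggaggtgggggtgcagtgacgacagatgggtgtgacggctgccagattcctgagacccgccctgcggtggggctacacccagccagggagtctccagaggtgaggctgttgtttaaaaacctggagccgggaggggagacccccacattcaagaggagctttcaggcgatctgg
LAMA3-201 had 3 matches, beginning 252, 125 and 69 bases before its start, and LAMB3-201 had none. Over RefSeq promoter windows of 250 bases before to 50 after a start (GRCh38.p14), 4.92% of 34961 held a match and 0.223% held at least 2. In those windows 5 of the 8 genes were present with 10 starts, of which 3 held a match: the LAMA3-201 start with 2, the most downstream LAMB3 start with 1, and the first DST start with 1. A match is a description of letters, not of binding.

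LAMB3 gained DRIP-seq regions after PMA in both lines. The gene (chr1:209614870-209652425, minus strand, ENSG00000196878.15) held 4 regions after DMSO, 22 after PMA for 2 h and 17 after 6 h in WT. In A3B KO the numbers were 6, 27 and 26. Per 100000 regions of the list this was 4.52-fold more at 2 h and 2.35-fold more at 6 h in WT, and 3.68-fold and 2.52-fold more in A3B KO. LAMB3 was the sole member called higher at 2 h in WT, while 12.4% of 10067 genes were called higher. It was also the sole member called higher at 6 h in WT (13.2% of genes) and at 6 h in A3B KO (11.6%). At 2 h in A3B KO it was called with PLEC (13.3%). At 1 or 2 of 8, the members called higher made up a share near these, so the number of members called says nothing particular about the group.

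The strongest summit of LAMB3 lay in an intron near its start in all 6 DRIP-seq lists, 320 to 362 bp after the start, inside the first window printed above. Its fold enrichment was 8.34 after DMSO, 38.8 after PMA for 2 h and 37.3 after 6 h in WT. In A3B KO it was 13.7, 48.3 and 38.8. The 4 PMA values lay above both DMSO values, and so did the pileup. It was 66, 297 and 357 fragments in the WT lists, and 108, 404 and 528 in those of A3B KO. Among all regions of its list the summit ranked 3964th after DMSO, 83rd at 2 h and 92nd at 6 h in WT, and 645th, 56th and 86th in A3B KO. The plot of the strongest region per gene shows that no other member reached a fold enrichment of 27.

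**Figure D1:**
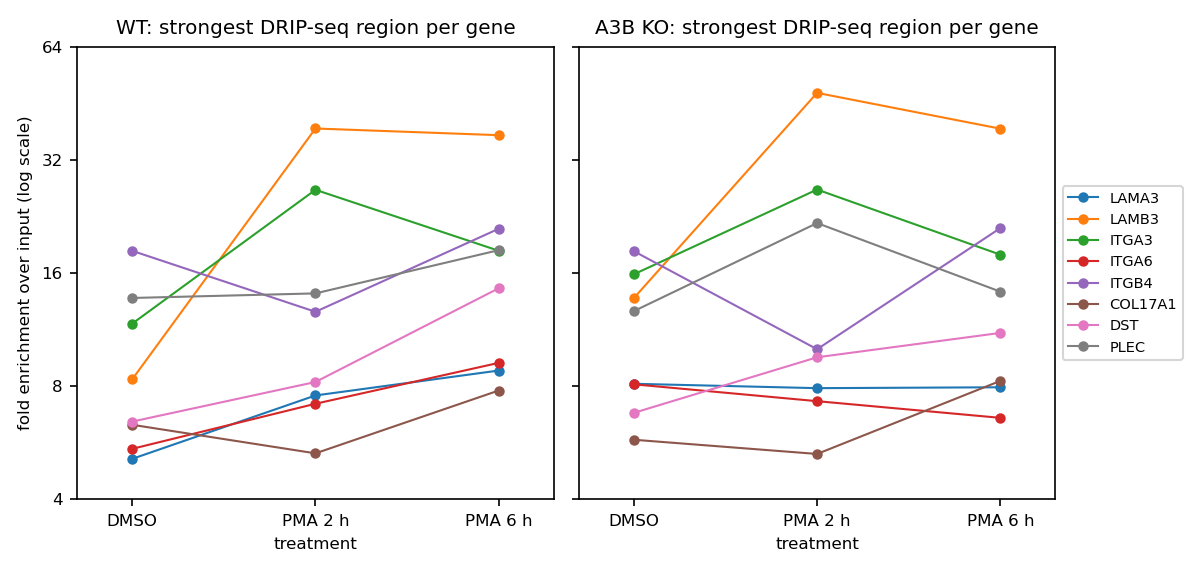
Fold enrichment over input (vertical axis, log scale) of the strongest DRIP-seq region in each of the 8 genes after DMSO, PMA for 2 h and PMA for 6 h, in WT (left) and A3B KO (right). Each point is 1 region of 1 library and lines join the points of a gene; LAMB3 rises from 8.34 to 38.8 in WT and from 13.7 to 48.3 in A3B KO, while ITGB4 is lowest at 2 h in both lines.

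The added LAMB3 regions were spread along the gene, with 1 or 2 regions within 2 kb of the start in each list. Merged over the 6 lists, DRIP-seq regions formed 27 separate places along LAMB3. Of these, 3 were present in all lists, at 0.333, 2.486 and 11.121 kb from the start, and 20 were present in PMA lists alone. No place was present in DMSO lists alone, and 7 places were present in all 4 PMA lists and neither DMSO list. A3B KO lists alone held 7 places and WT lists alone held 1.

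LAMB3 was close to filled by A3B-eGFP after PMA. It held 0 A3B-eGFP regions in DOX- DMSO, 2 in DOX+ DMSO and 60 in DOX+ PMA 2 h, the seventh highest number of 1558 genes with a region in that list. The 60 regions ran from 0.042 kb before the start to 37.076 kb after it, covered 72.2% of the span, and followed each other with a median gap of 594 bp and a largest gap of 1349 bp. Coding exons held 14 of them, introns 45, and 1 lay just before the start. Their median pileup was 92.5 fragments against 35 over the whole list, whereas their median fold enrichment of 3.41 was near that of the whole list, 3.19. The highest pileup was 194 at 17.707 kb. The 2 regions of DOX+ DMSO lay 71 bp apart, at 20.584 and 20.655 kb.

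The A3B-eGFP run did not stop at the annotated end of LAMB3. With gaps of at most 10 kb allowed, it held 80 regions over 55.1 kb, 19 of them past the end and up to 12.6 kb beyond it. Part of this stretch belongs to CAMK1G, a kinase gene on the opposite strand that ends 931 bp from LAMB3 and held 17 regions. Without strand in the lists, the regions there cannot be assigned to either gene. DRIP-seq regions were also found within 10 kb past the LAMB3 end, 1, 8 and 8 in WT and 5, 8 and 8 in A3B KO.

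LAMA3 held A3B-eGFP regions after PMA over its 3′ part alone. The gene (chr18:23689453-23956222, plus strand, ENSG00000053747.17) spans 266.77 kb and has a full transcript, LAMA3-202, and a short epithelial transcript, LAMA3-201, that begins 183.567 kb into it. It held 0 A3B-eGFP regions in DOX- DMSO, 1 in DOX+ DMSO and 72 in DOX+ PMA 2 h, the fourth highest number in that list. All 72 lay after the start of LAMA3-201, from 186.343 to 266.638 kb, although this stretch of 83.2 kb is 31.2% of the span. The nearest began the run 2776 bp after that start. The 1 region of DOX+ DMSO had its middle 137 bp before the same start, with a fold enrichment of 2.23 and a pileup of 45. Introns held 67 of the 72 regions and coding exons 5. They were sparser than in LAMB3 and lower in pileup, with 8.65 per 10 kb after the internal start against 15.98 per 10 kb over LAMB3, and a median pileup of 25 against 92.5. The run went on for 8.34 kb past the annotated end with 11 further regions.

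**Figure D2:**
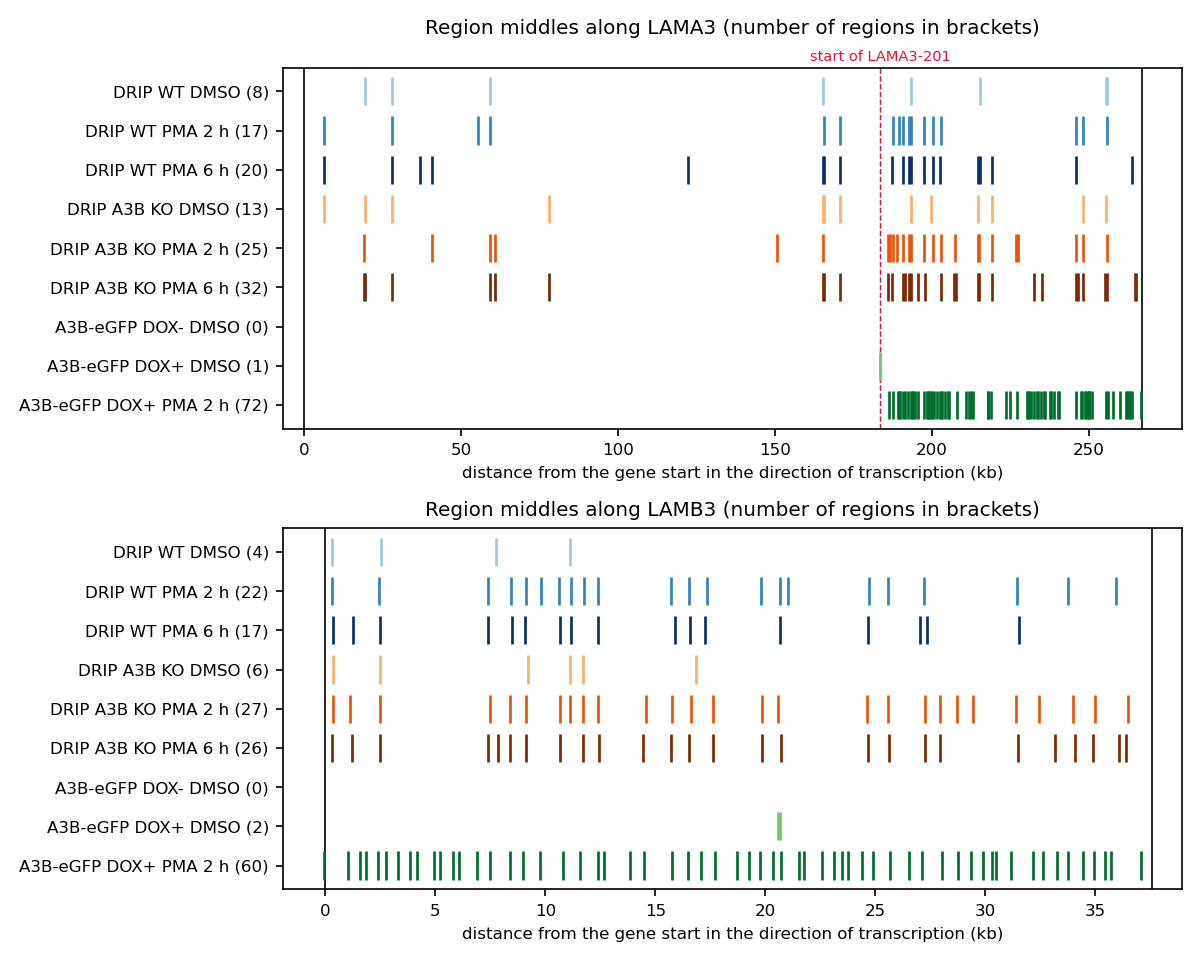
Middles of all regions along LAMA3 (top) and LAMB3 (bottom), 1 row per list, against distance from the gene start in kb; black lines mark gene start and end and the dashed line the start of LAMA3-201 at 183.567 kb. All 72 A3B-eGFP regions of LAMA3 after PMA lie to the right of the dashed line, where the 1 region of DOX+ DMSO lies 137 bp to its left, and the 60 of LAMB3 fill the gene.

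DRIP-seq regions of LAMA3 were counted on both sides of the same point. After the LAMA3-201 start, WT held 4, 11 and 12 regions after DMSO, PMA for 2 h and PMA for 6 h, and A3B KO held 6, 19 and 23. Before it, WT held 4, 6 and 8 and A3B KO 7, 6 and 9. Per 10 kb and without scaling to the list length, the 3′ part held 0.481, 1.32 and 1.44 regions in WT and 0.721, 2.28 and 2.76 in A3B KO. The 5′ part held 0.218, 0.327 and 0.436 in WT and 0.381, 0.327 and 0.490 in A3B KO. The 6 places that were present in all 4 PMA lists and neither DMSO list were all after the LAMA3-201 start. No list held a DRIP-seq region within 2 kb of either LAMA3 start, and the nearest after LAMA3-201 lay 2517 to 9791 bp from it. Over the whole gene, WT held 8, 17 and 20 regions and A3B KO 13, 25 and 32. These gains were below the 2-fold call, at 1.75-fold and 1.38-fold per 100000 regions in WT and 1.57-fold and 1.43-fold in A3B KO.

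The strongest WT DRIP-seq summit of LAMA3 at 2 h, in the window printed above, lay 193.344 kb from the gene start. A region was listed there in all 6 DRIP-seq lists, with fold enrichments of 4.06, 7.55 and 5.01 in WT and 5.41, 7.90 and 6.60 in A3B KO. An A3B-eGFP region of DOX+ PMA 2 h had its middle 357 bp further on. Ranked by fold enrichment, the best place of a LAMA3 summit in a DRIP-seq list was 4354th, at 6.54 kb in A3B KO after DMSO.

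ITGA3, the integrin α3 chain, had DRIP-seq regions near its start, near its end and between them in each list, which covered 20.2% to 39.4% of its span. The gene (chr17:50055968-50090481, plus strand, ENSG00000005884.18) held 14, 23 and 26 regions in WT and 21, 26 and 28 in A3B KO, and 13 of its 25 places were present in all 6 lists, more than in any other member. It was called in neither direction in any DRIP-seq comparison. The strongest region within about 0.8 kb of the start had fold enrichments of 11.7, 26.7 and 18.3 in WT and 15.9, 26.7 and 17.9 in A3B KO, highest at 2 h in both lines. Its pileup was 123, 223 and 208 fragments in WT but 163, 270 and 351 in A3B KO, where it was highest at 6 h. A3B-eGFP regions numbered 0, 6 and 26. This was 3.62-fold more per 100000 regions after PMA, and in that list ITGA3 was the one integrin member with a run of A3B-eGFP regions over its length. The run held 32 regions over 41.6 kb, and 6 of these lay in PDK2, the next gene on the same strand.

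ITGB4, the integrin β4 chain of the hemidesmosome, changed the other way. The gene (chr17:75721328-75757818, plus strand, ENSG00000132470.14) held 25, 10 and 19 DRIP-seq regions in WT and 25, 9 and 20 in A3B KO. Per 100000 regions this was 0.329 and 0.421 of the DMSO value in WT and 0.294 and 0.466 in A3B KO, and ITGB4 was called lower in all 4 comparisons. Without scaling to the list length the calls at 6 h were lost, at 0.76 in WT and 0.8 in A3B KO. Of genes with at least 3 regions in either list, 18.2% and 18.4% were called lower in WT at these times. In A3B KO it was 14.7% and 16%. With ITGB4 and COL17A1 lower in WT and ITGB4 in A3B KO, the members' share was near these values. Its summit near 0.5 kb, in the ITGB4 window printed above, had fold enrichments of 18.3, 12.6 and 21.0 in WT and 17.7, 9.60 and 21.1 in A3B KO. At the start the signal was thus lowest at 2 h and back at 6 h in both lines. Of its 25 places, 9 were present in DMSO lists alone and 3 in PMA lists alone. A3B-eGFP regions numbered 0 in DOX- DMSO, 7 in DOX+ DMSO and 1 in DOX+ PMA 2 h. ITGB4 overlaps GALK1, a galactose metabolism gene on the opposite strand.

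**Figure D3:**
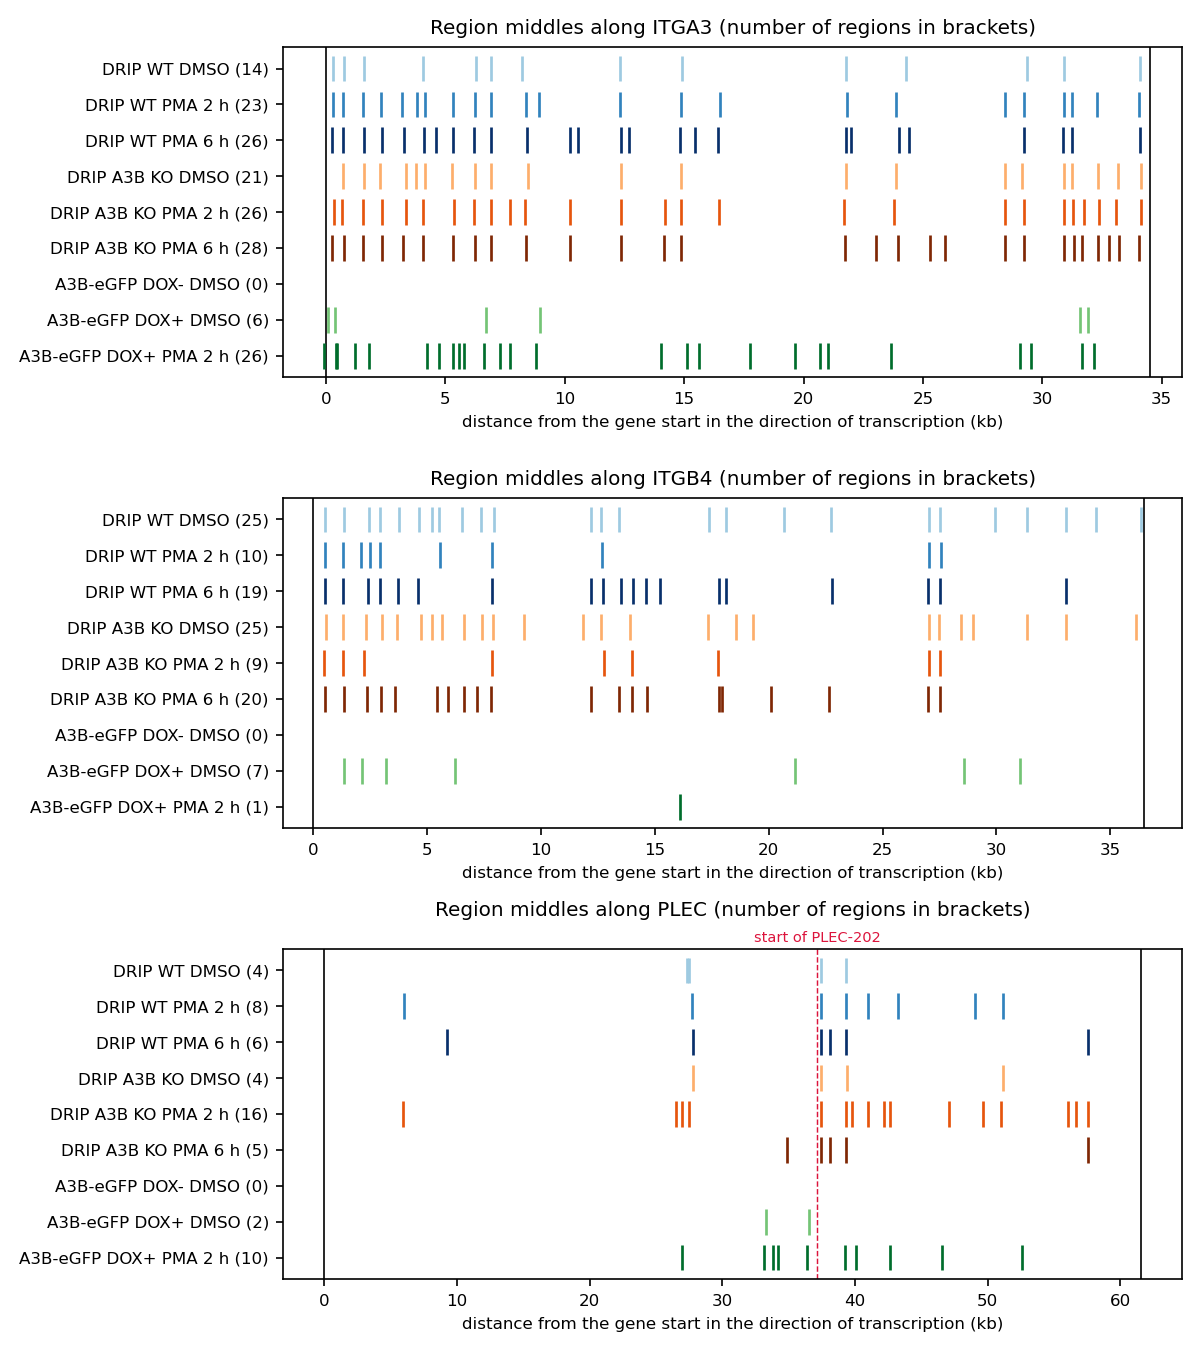
Middles of all regions along ITGA3, ITGB4 and PLEC, 1 row per list, against distance from the gene start in kb; black lines mark gene start and end and the dashed line the start of PLEC-202 at 37.137 kb. ITGB4 shows 10 and 9 DRIP-seq regions at 2 h against 25 after DMSO, and ITGA3 shows 26 A3B-eGFP regions after PMA against 6 before.

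ITGA6, the partner of ITGB4 in the same integrin, held few regions. The gene (chr2:172427354-172506459, plus strand) had 6, 4 and 10 DRIP-seq regions in WT, and 7, 7 and 15 in A3B KO. It held no A3B-eGFP region in any list. A region about 1.4 kb from the start was present in all 6 lists, with fold enrichments of 4.98, 6.61 and 7.93 in WT and 4.29, 7.29 and 6.22 in A3B KO. Both chains of the α6β4 integrin thus lacked a run of A3B-eGFP regions after PMA. In DOX+ DMSO, ITGB4 held 7 regions from 1.342 to 31.022 kb.

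PLEC, DST and COL17A1 cover the inner plaque and the transmembrane collagen. PLEC (chr8:143915153-143976734, minus strand) held 4, 8 and 6 DRIP-seq regions in WT and 4, 16 and 5 in A3B KO. It was called higher at 2 h in A3B KO, 3.27-fold per 100000 regions, and lower from 2 h to 6 h, to 0.223 of the 2 h value (11.3% of genes lower). Its strongest summit lay about 0.3 kb after the start of PLEC-202, the MANE transcript, which begins 37.137 kb into the gene. That summit was listed in all 6 lists, with fold enrichments of 13.7, 14.1 and 18.4 in WT and 12.7, 21.7 and 14.3 in A3B KO. A3B-eGFP regions in PLEC numbered 0, 2 and 10, all with a fold enrichment of at most 2.37.

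DST (chr6:56457987-56954830, minus strand) spans 496.844 kb and held 10, 10 and 18 DRIP-seq regions in WT and 13, 11 and 21 in A3B KO, at 0.201 to 0.423 per 10 kb the sparsest of the 8 genes. At 37.706 kb it had a region with a fold enrichment of 14.6 in WT at 6 h, and of 5.09, 9.09 and 11.1 in the 3 A3B KO lists, with none there in WT after DMSO or at 2 h. That place lies before the start of DST-201, a shorter transcript that begins 311.834 kb into the gene. Before this start lay 7, 7 and 14 regions in WT and 9, 8 and 13 in A3B KO. After it lay 3, 3 and 4 in WT and 4, 3 and 8 in A3B KO, with none within 2 kb of it. The DST counts are thus not particular to the epithelial form of dystonin. COL17A1 (chr10:104031286-104085880, minus strand) held 12, 7 and 6 in WT and 8, 6 and 13 in A3B KO. It was called lower in WT, at 0.480 of the DMSO value at 2 h and 0.277 at 6 h. The call at 2 h was lost at a −log10 q of at least 5 (0.509) and without scaling (0.583), and in A3B KO it was not called, at 0.613 and 0.946. DST and COL17A1 each held 1 A3B-eGFP region in DOX+ DMSO and none after PMA. Like LAMA3 and PLEC, neither gene had a DRIP-seq region within 2 kb of its most 5′ start in any list.

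**Figure D4:**
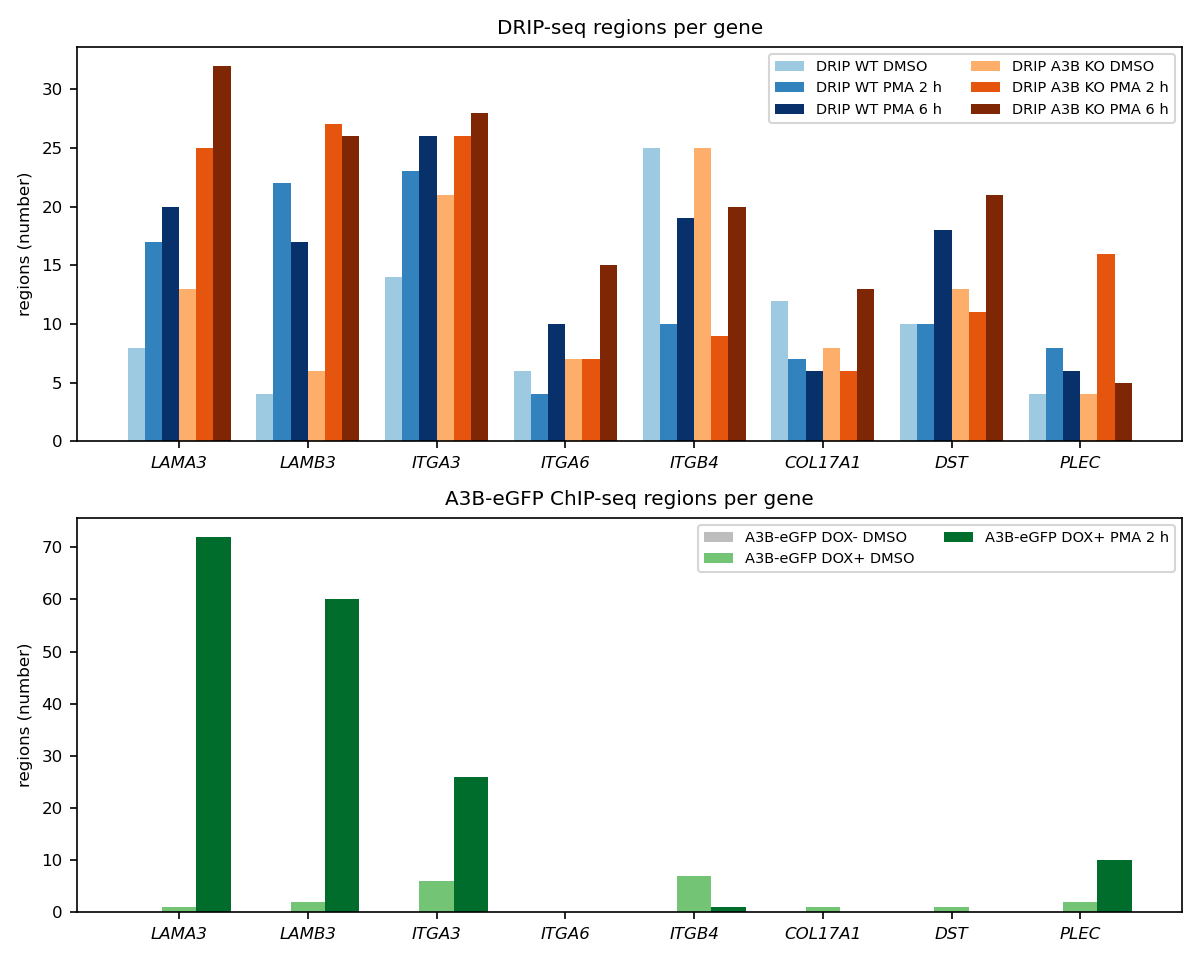
Number of regions per gene in the 6 DRIP-seq lists (top) and the 3 A3B-eGFP lists (bottom); each bar is 1 library, and list lengths differ from 91894 to 169126 in DRIP-seq. LAMA3, LAMB3 and ITGA3 hold 72, 60 and 26 A3B-eGFP regions after PMA, ITGB4 holds 1, and ITGA6, COL17A1 and DST hold none.

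Between the lines, few members differed. After DMSO, no member was called in A3B KO against WT, with 10.3% of genes higher and 10.2% lower, and none at 2 h (11.2% and 7.49%). At 6 h COL17A1 was called higher, 2.13-fold (7.76% higher, 8.36% lower). The median log2 ratio of A3B KO over WT across the 8 genes was 0.20, 0.13 and 0.38 after DMSO, 2 h and 6 h. Over genes with regions in both lists and at least 3 in either, it was -0.10, 0.06 and -0.03. From 2 h to 6 h in WT no member was called (15.5% higher, 9.19% lower), and in A3B KO only PLEC was.

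Induction of A3B-eGFP and then PMA were read separately. With doxycycline and DMSO against no doxycycline, ITGA3 and ITGB4 were called higher, from 0 to 6 and 7 regions, while 64.1% of 343 genes were called higher and 23% lower. With PMA and doxycycline against DMSO and doxycycline, LAMA3 (60.1-fold), LAMB3 (25.0-fold), PLEC (4.17-fold) and ITGA3 (3.62-fold) were called higher and ITGB4 (0.119) lower. The fold of LAMA3 rests on 1 region in DOX+ DMSO and that of LAMB3 and PLEC on 2. At a −log10 q of at least 5 the fold was 1.18 in PLEC, 11.8 in ITGA3 and 47.0 in LAMB3, and with equal list lengths it was 60 in LAMB3. Both settings drop regions, so the LAMB3 folds rest on at most 2 regions in DOX+ DMSO and are no stronger evidence. LAMA3 had no fold in either setting. Among 564 genes, 46.3% were called higher and 24.8% lower, and since LAMA3 and LAMB3 were chosen for this contrast nothing is read from the count of members.

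The share of DRIP-seq regions that overlapped an A3B-eGFP region differed among the genes, as did the number of A3B-eGFP regions they held. Of the 22 WT DRIP-seq regions in LAMB3 at 2 h, all overlapped an A3B-eGFP region of DOX+ PMA 2 h (100%, 95% Wilson interval 85.1 to 100). This was 11 of 17 in LAMA3 (64.7%, 41.3 to 82.7), 15 of 23 in ITGA3 (65.2%, 44.9 to 81.2) and 1 of 8 in PLEC (12.5%, 2.24 to 47.1). It was 0 of 10 in ITGB4 and DST, 0 of 7 in COL17A1 and 0 of 4 in ITGA6. Over the whole DRIP-seq list it was 2.41%. In A3B KO, 26 of the 27 LAMB3 regions overlapped one (96.3%, 81.7 to 99.3). These intervals cover counting error only, neighbouring regions of a gene are not independent, and LAMA3 and LAMB3 were chosen for their A3B-eGFP regions. In LAMB3 those regions cover 72.2% of the span with middles at most 1349 bp apart, so nearly any DRIP-seq region in the gene had to touch one. In LAMA3 all 72 lay after the LAMA3-201 start, as did 11 of its 17 WT DRIP-seq regions. ITGA6, COL17A1 and DST held no A3B-eGFP region after PMA, so their share had to be 0, and ITGB4 held 1. A share thus depends on how many A3B-eGFP regions a gene holds, and nothing is read from the shares or their differences.

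**Figure D5:**
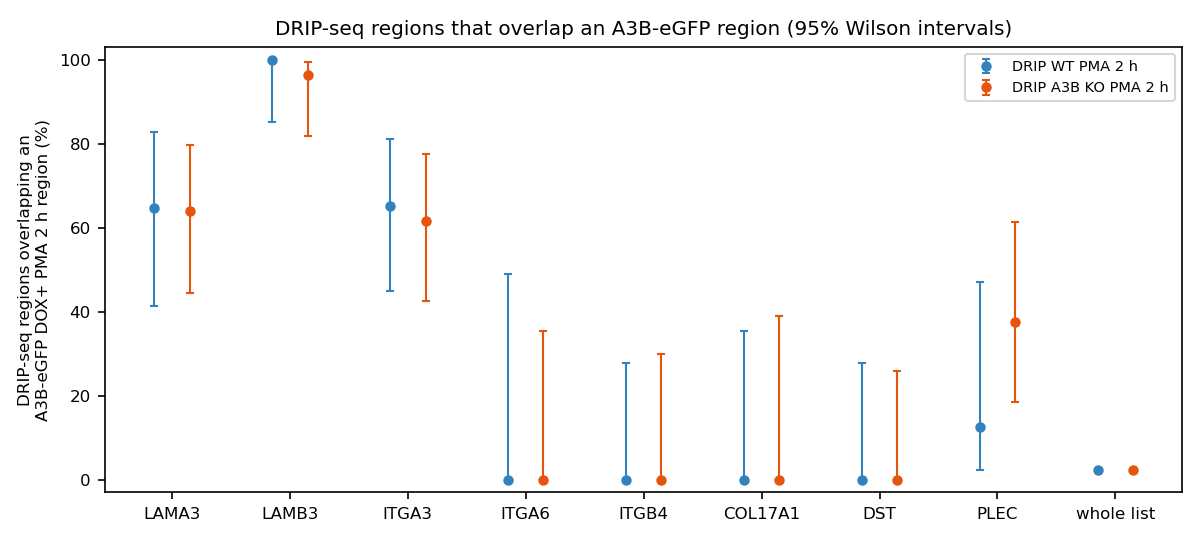
Share of DRIP-seq regions at PMA 2 h that overlap an A3B-eGFP region of DOX+ PMA 2 h by at least 1 bp, for each gene and the whole list, in WT and A3B KO; points are shares and bars 95% Wilson intervals. LAMB3 lies at 100% and 96.3%, LAMA3 and ITGA3 between 61.5% and 65.2%, and the whole list at 2.41% and 2.43%.

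Read from the A3B-eGFP side, 64 of the 169 regions in the 8 genes after PMA overlapped a WT DRIP-seq region at 2 h (37.9%, 30.9 to 45.4), against 42.8% of the list outside them. Against the WT DMSO list it was 23 of 169 (13.6%, 9.24 to 19.6), and 36.1% outside the 8 genes. The share was 5.56% against the DMSO list and 23.6% against the 2 h list in LAMA3, 10.0% and 46.7% in LAMB3, and 42.3% and 69.2% in ITGA3. With 250 bp of overlap the shares against the 2 h list were 13.9% in LAMA3, 28.3% in LAMB3 and 38.5% in ITGA3, and with DRIP-seq regions at a −log10 q of at least 5 they were 12.5%, 31.7% and 65.4%. At that threshold the 8 genes together stood at 27.2% and the list outside them at 35.8%. Of the 169 regions, 72 lay in LAMA3 and 60 in LAMB3, so these shares mostly describe that pair of genes. Each share also depends on how many DRIP-seq regions a gene holds. From DMSO to 2 h in WT these went from 8 to 17 in LAMA3 and from 4 to 22 in LAMB3, while the A3B-eGFP regions were the same. The intervals cover counting error only, and neighbouring regions are not independent. Nothing is therefore read from these shares or their differences. The DRIP-seq and A3B-eGFP data come from different MCF10A cells.

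Base composition was read beside that of the whole genes. Regions in LAMB3 had a median GC content of 50.4% in WT DRIP-seq at 2 h and 51.0% in A3B-eGFP after PMA, near the 49.9% of the whole gene, and those of LAMA3 45.2% and 46.4% against 42.5% for the gene. ITGA3 was at 55.8% and 59.1% (gene 52.6%) and PLEC at 67.6% and 70.0% (gene 63.6%), beside 45.8% and 52.0% over the whole lists. In the other genes the WT DRIP-seq regions at 2 h were at 47.9% in ITGA6 (gene 41.8%) and 60.2% in ITGB4 (58.0%). COL17A1 was at 56.0% (48.3%) and DST at 42.3% (38.1%), so in this list the median lay above the gene in all 8. In ITGB4 it lay below the gene in WT after DMSO (56.8%) and at 6 h (56.2%). It was also below in A3B KO after DMSO, at 2 h and at 6 h (57.4%, 54.0% and 57.0%). LAMB3 regions lay below the gene after DMSO, at 48.7% in WT and 47.2% in A3B KO. On the coding strand the median GC skew of DRIP-seq regions at 2 h was 0.205 in ITGA6, 0.130 in LAMA3, 0.107 in PLEC, 0.104 in LAMB3, 0.0798 in ITGA3, 0.0447 in ITGB4, 0.0237 in DST and -0.209 in COL17A1, with 0.0208 over the list. TCA and TCT on both strands were found 8.0 times per 100 bp in A3B-eGFP regions of LAMA3 after PMA and 7.8 times in those of LAMB3, against 7.0 over the list. Both values were near those of the gene spans, 7.87 and 7.78 per 100 bp.

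Related genes were counted by lists, to be read beside the 12.4% of genes with at least 3 regions called higher and 18.2% called lower at 2 h in WT. With 6 to 10 genes of a list at 3 or more regions, nothing is read from the shares. Among other laminin chains and basement membrane genes, 3 of 10 with at least 3 regions were called higher at 2 h in WT (LAMC1, LAMC3 and COL4A2) and 2 lower (LAMA5 and LAMB1). LAMC1 and LAMB1 were called the same way in A3B KO at 2 h, and LAMC3, COL4A2 and LAMA5 were not called there. COL4A1, a collagen IV chain, was the 1 of these 13 genes with 3 A3B-eGFP regions after PMA. Among other integrins, 3 of 6 were called higher (ITGA2, ITGA5 and ITGB8) and 2 lower (ITGA1 and ITGB6), each the same way in A3B KO at 2 h. ITGA5, the fibronectin receptor chain, held 1, 15 and 6 DRIP-seq regions in WT and 5, 25 and 16 in A3B KO, with 0, 0 and 5 A3B-eGFP regions. ITGA2, a collagen receptor chain, went from 0 after DMSO to 5 and 6 in WT and to 7 and 5 in A3B KO, with 8 A3B-eGFP regions after PMA and none before. Among desmosome genes, 3 of 6 were called higher (JUP, PKP2 and DSC2) and 2 lower (DSG2 and DSG3). DSC2 went from 1 to 3 regions, DSG2 from 3 to 1 and DSG3 from 4 to 1. In A3B KO at 2 h JUP alone was called, again higher. JUP (plakoglobin) held 5, 20 and 8 in WT and 5, 28 and 13 in A3B KO, and 6 A3B-eGFP regions after PMA. Among the hemidesmosome partners, 7 had at least 3 regions at 2 h or after DMSO in WT. Of these, KRT5, the basal keratin that hemidesmosomes anchor, and BMP1, a procollagen protease gene, were called lower at 2 h. KRT5 went from 4 to 2 regions and BMP1 from 6 to 3. Calls of the other partners are not reported here. In A3B KO at 2 h KRT5 was called lower, from 3 regions to 1, and BMP1 was not called. KRT5 was also lower in A3B-eGFP after PMA, with 7 regions in DOX+ DMSO and 0 after PMA.

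Over the 9 lists, the genes with a pattern most like LAMB3 were UPP1 (Pearson r of log2 regions per 100000 plus 1 of 0.983), LAMA3 (0.974), SLC20A1 (0.973), ENSG00000273269 (0.973) and its neighbour CAMK1G (0.973), of 4343 genes compared. For LAMA3 the closest included UPP1 (0.976), LAMB3 (0.974), LMO7 (0.971) and SYTL3 (0.967). Among the members, LAMB3 was also near PLEC (0.946) and ITGA3 (0.931) and far from ITGA6 (-0.269), and COL17A1 and DST were near each other (0.951). The 9 points include 3 A3B-eGFP lists with high values and zeros, so these values mostly describe that contrast. LAMA3 and LAMB3 were both chosen for their A3B-eGFP regions after PMA, so nothing is read from their likeness to each other.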

How the data were processed

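DRIP-seq of MCF10A WT and A3B KO cells and anti-GFP ChIP-seq of MCF10A-TREx-A3B-eGFP cells were analysed from 9 deposited peak lists, 1 per condition, and the 9 inputs of the 18 samples were not used on their own. Groups came from the sample labels. Per the labels and the study's methods, the authors trimmed reads with Cutadapt 1.13, aligned them to hg38 with STAR 2.6.1d, filtered with SAMtools 1.3.1, Picard and bedtools 2.29.2, and called peaks with MACS2 on paired-end fragments against each input at a q of 0.01 with summits. The MACS2 version given with the samples, 2.2.6, differs from the one in the methods. Pileup, a signal counted in fragments, was deposited without a stated scaling between libraries. The fold enrichment in the deposited lists is a ratio over the local background. Significance was deposited as −log10 p and −log10 q, and −log10 q served here for a stricter threshold and for equal list lengths. Positions may be off by 1 bp, since the base from which starts are counted is not given.

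Regions were assigned with GENCODE 44, a later release than the authors' annotation, by their middle, and sequences were read from hg38 with pysam 0.24.0. Counting, calls and overlaps (pandas 2.3.3, scipy 1.17.1) were tested on simulated lists. The members and gene lists were chosen with earlier results of these data known. Named genes were the 8 members, genes overlapping them, up to 3 per gene list and comparison with the largest change, and the 5 protein-coding genes most alike to LAMB3 and to LAMA3 with at least 10 regions in a list. The other called genes of each list, PDK2 and, as the neighbour of LAMB3, CAMK1G were named after their values were seen. With 1 library per condition no test was made. Alternatives changed the peak threshold, list length, scaling, assignment, merging, overlap, ranking measure and region width. Results at some genes and 1 sequence are not reported here.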

Additional observations from a re-analysis of the deposited data

Results flagged for a closer look

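For 3 genes the counts per 100000 regions moved in opposite directions in WT and A3B KO, with 1 library each, so the difference was not tested. None of these changes reached the 2-fold call. From DMSO to PMA for 6 h, ITGA3 went to 1.03 of its DMSO value in WT, close to no change, and to 0.776 in A3B KO. Without scaling to the list length it rose in both lines, from 14 to 26 regions in WT and from 21 to 28 in A3B KO. ITGA6 went to 0.923 in WT and 1.25 in A3B KO over the same times. Unscaled, ITGA6 also rose in both lines, from 6 to 10 regions in WT and from 7 to 15 in A3B KO. From 2 h to 6 h, COL17A1 went to 0.578 of its 2 h value in WT, from 7 to 6 regions, and to 1.54 in A3B KO, from 6 to 13 regions.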

How the results depend on the processing

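The main limits are 1 library per condition, an unknown number of reads and lists that hold no value under the peak threshold. No paired analysis was possible because each condition has 1 library. Of the counts and shares per comparison, 96 alternatives stayed near the main value and 22 moved. No gene with a call and a fold in the main setting changed direction under an alternative that gave it a fold. Members without a call could change direction without scaling. ITGA6 in WT at 6 h stood at 0.923 of its DMSO value scaled, but went from 6 to 10 regions unscaled. With −log10 q of at least 5, 2 members were higher at 2 h and 2 at 6 h in WT, 2 at 6 h in A3B KO, 1 in A3B KO over WT after DMSO and 1 with doxycycline over none. With equal list lengths, 1 member was lower at 2 h in WT and 3 from 2 h to 6 h. With raw counts, 3 were higher and 1 lower at 2 h in WT, 2 higher and 1 lower at 6 h, and 1 higher from 2 h to 6 h. Raw counts in A3B KO gave 3 higher and 0 lower at 6 h, 3 higher from 2 h to 6 h, and 1 higher over WT at 2 h. With overlapping regions merged, 3 were higher at 2 h in WT and 0 lower at 6 h in A3B KO. The share of A3B-eGFP regions of DOX+ PMA 2 h that overlapped DRIP-seq was 22.5% with 250 bp of overlap, 27.2% with −log10 q of at least 5 (35.8% outside the 8 genes) and 46.2% with A3B KO, and that of DOX+ DMSO was 20.0% with 250 bp. LAMB3 was called higher after PMA in both lines under each of these alternatives. The call of ITGB4 at 6 h was lost with raw counts (0.76 in WT, 0.8 in A3B KO) and, in A3B KO, with merged regions (0.515). That of COL17A1 at 2 h in WT was lost with −log10 q of at least 5, equal lengths and raw counts (0.509 to 0.583), and that of PLEC in A3B-eGFP with −log10 q of at least 5 (1.18) and equal lengths (1.5). Raw counts carry the list lengths, and the other causes were not tested. Ranks of summits moved in 26 cases and not in 34 by −log10 q, and in 35 and not in 25 by pileup.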
